A study of Mus musculus with 28 samples.

Results

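The Tourette syndrome candidate genes examined here were *Slitrk1*, *Cntn6*, *Celsr3*, *Wwc1*, *Opa1*, *Nipbl*, *Col27a1* and *Immp2l*, 8 of the 29878 genes listed in each library. They were picked by symbol from a list of genes linked to Tourette syndrome in human genetics, with no measured value in the rule, and each symbol was matched to its Ensembl identifier in the mouse annotation. All 8 passed the filter on low counts, which left 14979 genes for testing.

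Gene expression was measured by RNA-seq in dissected motor cortex, dorsal striatum, ventral striatum and hypothalamus of adult male mice aged 2 to 3 months on a C57Bl/6 background. The mice were wild-type (WT), heterozygous or knockout (KO) for *Hdc*, which encodes histidine decarboxylase, the enzyme that makes histamine, and the KO allele was carried by every cell of the animal. There were 28 libraries. WT, heterozygous and KO mice gave 2, 3 and 2 libraries of the dorsal striatum, 3, 3 and 2 of the ventral striatum, 3, 3 and 2 of the hypothalamus, and 1, 2 and 2 of the motor cortex. The WT motor cortex, with its 1 library, allows no replicate check of a genotype difference there. The labels do not say whether libraries of 1 group came from separate mice, so p-values measure only the spread between these libraries, which may be in part technical.

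Library depth lay between 3536802 and 5150280 counts on genes. Levels are given in CPM, a gene's counts as a share of its library's total at a common depth, with the totals adjusted by the trimmed mean of M values (TMM). *Hdc* had 0 to 6 counts in WT libraries of the 3 regions outside the hypothalamus, 17 to 33 in heterozygous libraries and 29 to 51 in libraries labelled KO, whereas the hypothalamus had 79 to 111, 78 to 117 and 54 to 66. Counts per gene do not show which exons were read, and outside the hypothalamus the order runs against a loss of *Hdc* reads in the KO, so genotypes are given below as the labels give them. The region labels matched their markers. The dopamine receptor gene *Drd1* was at 184 to 293 CPM in the dorsal and 60.0 to 160 CPM in the ventral striatum, and at most 8.17 CPM in the other regions. *Slc17a7*, the vesicular glutamate transporter of cortical neurons, was at 1041 CPM or more in every motor cortex library. *Hcrt*, the orexin precursor, was at 44.0 to 76.9 CPM in the hypothalamus and at most 0.479 CPM elsewhere. A few libraries held markers of neighbouring tissue. Summed over a list of 10 cortical excitatory neuron genes, KO library 7 of the dorsal striatum had 456 CPM against 92.0 to 196 CPM in the other 6. KO library 8 of the hypothalamus had 632 CPM for the same list against 249 to 391 CPM in the other 7. KO library 8 of the dorsal striatum had 2895 CPM for 10 choroid plexus genes, where the others had 4.50 to 70.8 CPM. As the tissue was bulk, fewer cells of a type and less RNA per cell cannot be told apart in any value below.

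Tourette syndrome is a childhood-onset disorder of motor and vocal tics that is studied as a disorder of circuits linking the cortex with the striatum. The candidate genes encode proteins that act at different places in or around a cell. SLITRK1 is a leucine-rich repeat protein of the neuronal membrane that binds receptor-type tyrosine phosphatases across the synapse, CNTN6 is a contactin, a GPI-anchored adhesion molecule, and CELSR3 is a multi-pass cadherin of the planar cell polarity pathway that guides axon tracts. WWC1, also called KIBRA, is a scaffold of the postsynaptic density and an upstream regulator of Hippo signalling. OPA1 fuses the inner mitochondrial membrane, and IMMP2L is a subunit of the peptidase that trims proteins of that membrane. NIPBL loads cohesin onto DNA, and COL27A1 is a fibrillar collagen of the extracellular matrix.

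The genes lie on 8 different chromosomes of GRCm38. *Slitrk1* (ENSMUSG00000075478) is on chromosome 14 from 108908800 to 108914158 on the minus strand and has no annotated intron, its exons covering all 5359 bases. *Cntn6* (ENSMUSG00000030092) runs from 104492790 to 104863406 on chromosome 6, plus strand, and *Celsr3* (ENSMUSG00000023473) from 108826320 to 108852969 on chromosome 9, plus strand. *Wwc1* (ENSMUSG00000018849) spans 35838400 to 35980527 on chromosome 11, minus strand. *Opa1* (ENSMUSG00000038084) spans 29579334 to 29654884 on chromosome 16, plus strand, and *Nipbl* (ENSMUSG00000022141) 8290617 to 8444463 on chromosome 15, minus strand. *Col27a1* (ENSMUSG00000045672) lies at 63214004 to 63334991 on chromosome 4, plus strand. *Immp2l* (ENSMUSG00000056899), from 41024090 to 41955588 on chromosome 12, plus strand, is the longest locus, with 1832 bases of exon in 931499. *Lrrn3*, a neuronal leucine-rich repeat gene with a mean of 278 counts per library, lies on the opposite strand inside an *Immp2l* intron and shares no exon base with it. The library kit did not mark strand, so reads of both genes in that interval cannot be told apart by strand.

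Promoter windows of 300 bases, from 250 before to 50 after the RefSeq start (GRCm38.p6), were matched for 7 of the genes, all but *Nipbl*. The windows of *Slitrk1* and *Celsr3* are shown because these genes had the widest and the narrowest range across regions, and that of *Cntn6* because it also varied and, like *Slitrk1*, held none of the motifs searched. *Slitrk1* is at chr14:108914190-108914489 (minus strand), *Cntn6* at chr6:104492794-104493093 (plus) and *Celsr3* at chr9:108825795-108826094 (plus). By the gene coordinates given above, the whole *Cntn6* window lies inside the gene, and those of *Slitrk1* and *Celsr3* lie wholly before theirs. The RefSeq starts thus differ from the annotated gene starts. Capitals mark a GC box or a partial REST site.
Slitrk1: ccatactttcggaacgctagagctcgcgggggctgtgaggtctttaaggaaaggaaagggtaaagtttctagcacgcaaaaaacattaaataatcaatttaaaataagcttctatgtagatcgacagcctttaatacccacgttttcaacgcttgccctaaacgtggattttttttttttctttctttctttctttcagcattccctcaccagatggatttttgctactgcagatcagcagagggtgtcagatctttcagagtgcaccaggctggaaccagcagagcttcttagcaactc
Cntn6: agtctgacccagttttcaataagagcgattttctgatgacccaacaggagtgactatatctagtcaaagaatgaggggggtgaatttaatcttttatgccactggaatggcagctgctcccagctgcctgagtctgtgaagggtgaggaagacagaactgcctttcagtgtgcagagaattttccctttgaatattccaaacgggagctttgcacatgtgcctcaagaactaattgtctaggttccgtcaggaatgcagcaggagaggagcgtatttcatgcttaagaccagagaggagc
Celsr3: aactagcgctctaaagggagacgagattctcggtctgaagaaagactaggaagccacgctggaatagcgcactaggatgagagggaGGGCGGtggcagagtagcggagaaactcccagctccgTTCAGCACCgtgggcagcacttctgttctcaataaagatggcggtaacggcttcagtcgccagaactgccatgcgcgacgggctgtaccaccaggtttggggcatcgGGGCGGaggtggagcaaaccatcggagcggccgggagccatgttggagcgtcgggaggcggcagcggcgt
Of the 32851 mouse promoters in the same table, 35.7% held the GC box GGGCGG on either strand, and it was present in 5 of the 7 windows, once in *Wwc1*, 2 times in *Celsr3* and *Col27a1*, 3 times in *Opa1* and 6 times in *Immp2l*. TTCAGCACC, a partial form of the element bound by REST, a repressor of neuronal genes, was found in 0.371% of promoters and in 1 of the 7 windows, that of *Celsr3*, where it starts 127 bases before the transcription start. The *Slitrk1* window was 42.3% G or C, lower than that of *Cntn6* (46.3%) and of *Celsr3* (60.7%), and the median over all promoters was 52.7%. *Immp2l* and *Wwc1* had the highest share, 68.0%. CCAAT, which 37.4% of promoters held, was in 3 windows (*Wwc1*, *Immp2l*, *Opa1*). The letters TATAAA (13.6% of promoters) and CACGTG (7.15%) were in none of the 7.

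Levels were first compared between genes per kb of exon, since a longer gene collects more reads. *Opa1* had the highest level, with a mean of 20.5 CPM per kb over the 28 libraries, above 91.1% of the genes with a known length. *Nipbl* (11.2 CPM per kb), *Slitrk1* (9.16) and *Wwc1* (8.90) followed, the last pair being nearly level. *Celsr3* was at 3.71, *Cntn6* at 1.60 and *Immp2l* at 1.05 CPM per kb. *Col27a1* was lowest, at 0.225 CPM per kb, above only 7.40% of genes. The low end limits precision. *Col27a1* had 2 to 27 counts per library and *Immp2l* 4 to 18, against 542 to 880 for *Opa1*.

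**Figure D1:**
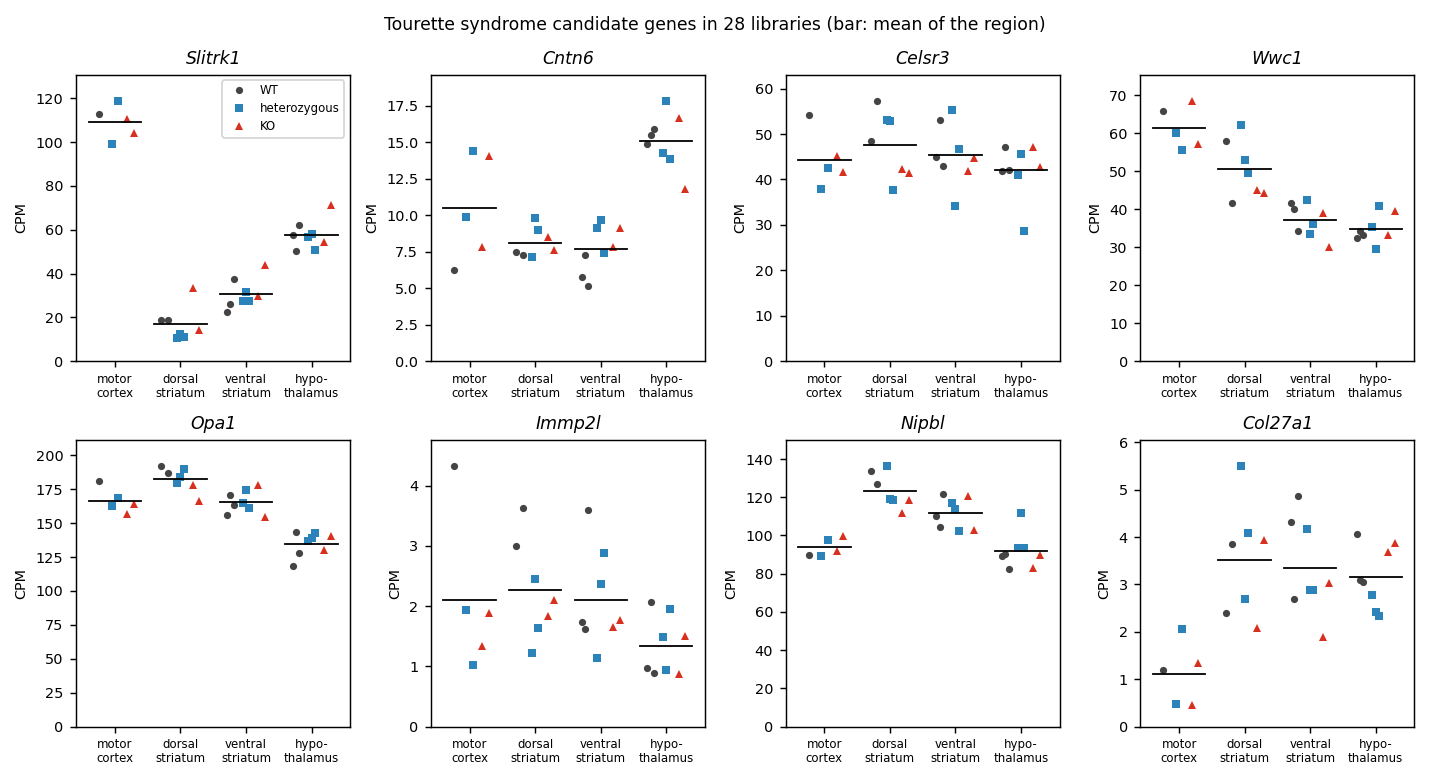
Level of each candidate gene (CPM, linear axis from 0) in each of the 28 libraries by region, with WT as circles, heterozygous as squares and KO as triangles, and a bar at the region mean. *Slitrk1* fell from 109 CPM in the motor cortex to 17.1 CPM in the dorsal striatum, whereas *Celsr3* stayed between 42.0 and 47.6 CPM on average.

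The first comparison asked how the candidate genes differ between the 4 regions. In edgeR's likelihood ratio test over all genes, 25 of the 48 combinations of gene and region pair were past a Benjamini-Hochberg adjusted p of 0.05, 52.1%, where 44% of all gene and pair combinations were. By pair, 2 of the 8 genes were called between dorsal and ventral striatum (29% of all genes), 6 between dorsal striatum and hypothalamus (56.1%) and 4 between dorsal striatum and motor cortex (43.4%). Another 4 were called between ventral striatum and hypothalamus (43.6%), 4 between ventral striatum and motor cortex (43.7%) and 5 between hypothalamus and motor cortex (48.2%). The candidate genes were thus called about as often as genes in general, and they differed from each other in which region stood out. The median log2 fold change of the 8 genes was 0.11 for dorsal over ventral striatum, 0.30 for dorsal striatum over hypothalamus and 0.05 over motor cortex, where the median of all genes was -0.01, -0.04 and 0.03. For ventral striatum over hypothalamus and motor cortex it was 0.09 and -0.07 (all genes -0.03 and 0.04), and for hypothalamus over motor cortex -0.21 (all genes 0.05). Libraries of the compared regions did not overlap for 3 genes between motor cortex and dorsal striatum (26.4% of all genes), 3 between motor cortex and ventral striatum (24.6%) and 4 between motor cortex and hypothalamus (30.3%). The same held for 5 genes between dorsal striatum and hypothalamus (27.9%), 3 between ventral striatum and hypothalamus (16%) and 0 between the dorsal and ventral striatum (9.65%).

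**Figure D2:**
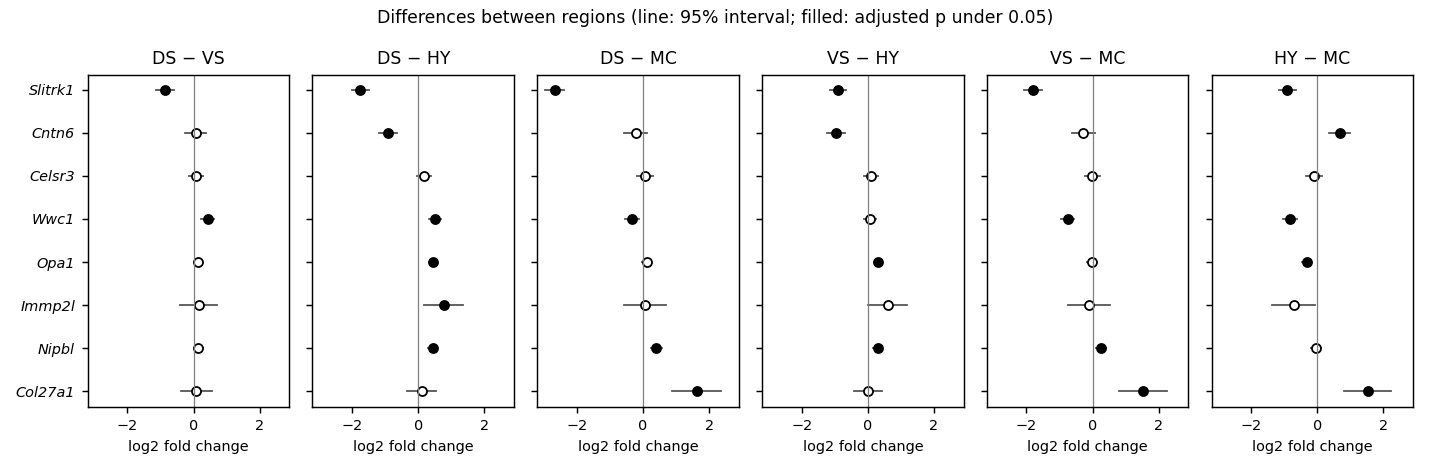
Log2 fold change between each pair of regions (MC motor cortex, DS dorsal striatum, VS ventral striatum, HY hypothalamus) for the 8 candidate genes, with 95% intervals as lines. Filled points passed an adjusted p of 0.05 and open points did not, and the filled points number 6 for *Slitrk1* and 0 for *Celsr3*.

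*Slitrk1*, the synaptic adhesion gene, varied most. Its 5 motor cortex libraries were at 99.0, 104, 111, 113 and 119 CPM, with a mean of 109 ± 7.68 (SD). The hypothalamus had 50.4 CPM at the lowest, 57.3 at the median and 71.3 at the highest (mean 57.8 ± 6.75 SD, n = 8), and the ventral striatum 22.5, 28.7 and 44.0 CPM (mean 30.8 ± 6.94 SD, n = 8). In the dorsal striatum the lowest, median and highest libraries were at 10.6, 14.4 and 33.4 CPM (mean 17.1 ± 7.95 SD, n = 7). The order was thus motor cortex, hypothalamus, ventral striatum and dorsal striatum, with overlap between libraries only for the last pair. All 6 pairs were called. The dorsal striatum was lower than the motor cortex by a log2 fold change of -2.67 (SE 0.15, adjusted p = 2.07e-74, edgeR likelihood ratio test), and its difference from the ventral striatum was -0.86 (SE 0.14, adjusted p = 4.47e-09). The regional means spanned 6.39-fold. Between regional means of log2 CPM the span of *Slitrk1* was 2.75, wider than that of 96.2% of the genes tested, and the median gene's was 0.61.

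Within each of the 3 regions outside the motor cortex, the library with the most *Slitrk1* was also the one highest in the cortical list. KO library 7 of the dorsal striatum had 33.4 CPM of *Slitrk1* and 456 CPM of the list. KO library 8 of the ventral striatum had 44.0 CPM beside 178 CPM, where the other 7 had 129 to 158 CPM of the list. This was a smaller excess than in the dorsal striatum or hypothalamus. The same library had the lowest sum of the striatal spiny neuron list, 1741 CPM against 2027 to 4068 CPM in the other 7. KO library 8 of the hypothalamus had 71.3 CPM beside 632 CPM. All 3 carry the KO label. Without these 3 libraries the 6 pairs were still called, with log2 fold changes of -2.91 for dorsal striatum against motor cortex and -0.98 for hypothalamus against motor cortex. These libraries were set aside after their values were seen. In the motor cortex itself the list sums were 2300 to 2484 CPM. The part of cortical cells in the values of these 3 libraries was not tested further.

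**Figure D3:**
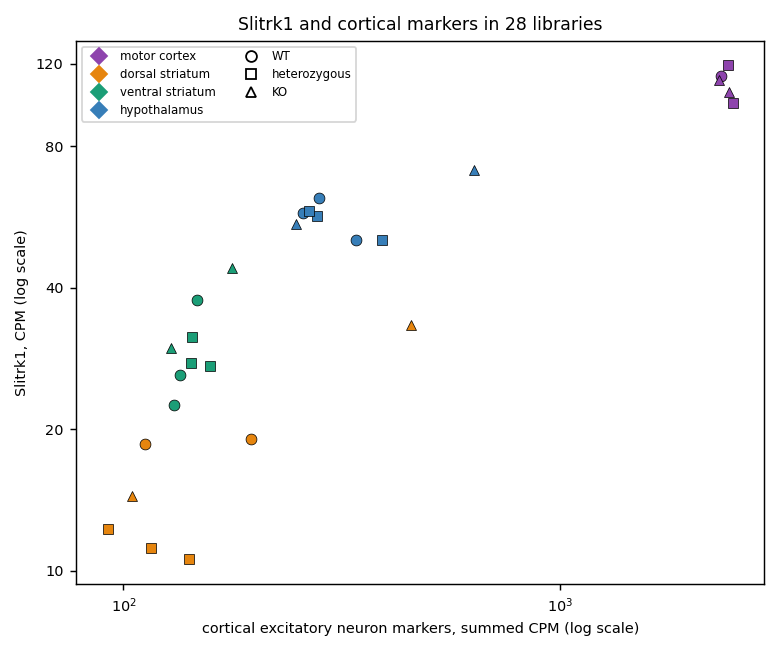
*Slitrk1* (CPM) against the summed CPM of 10 cortical excitatory neuron genes in the 28 libraries, both on log axes, with region as colour and genotype as symbol. The 5 motor cortex libraries stand at the upper right, and KO libraries at 456, 178 and 632 CPM of the list are the highest of their region on both axes.

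*Cntn6*, the contactin, was highest in the hypothalamus, with 11.8 CPM at the lowest, 15.2 at the median and 17.9 at the highest (mean 15.1 ± 1.86 SD, n = 8). The dorsal striatum had 7.13, 7.61 and 9.81 CPM (mean 8.12 ± 1.01 SD, n = 7) and the ventral striatum 5.13, 7.61 and 9.69 CPM (mean 7.66 ± 1.63 SD, n = 8), so neither overlapped with the hypothalamus. The 5 motor cortex libraries spread from 6.25 to 14.4 CPM and overlapped with all other regions. The 3 pairs with the hypothalamus were called, with log2 fold changes of -0.91 (SE 0.14) for the dorsal striatum, -0.97 (SE 0.14) for the ventral striatum and 0.68 (SE 0.16) for hypothalamus over motor cortex. The other 3 were not, and the motor cortex mean of 10.5 ± 3.66 CPM was not told apart from either striatal mean (log2 fold change of ventral striatum over motor cortex -0.29, 95% interval -0.63 to 0.06).

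*Celsr3*, the axon guidance cadherin, had regional means of 44.3 ± 6.08 (motor cortex, n = 5), 47.6 ± 7.30 (dorsal striatum, n = 7), 45.5 ± 6.64 (ventral striatum, n = 8) and 42.0 ± 5.94 CPM (hypothalamus, n = 8). None of its 6 pairs was called by edgeR's likelihood ratio test, and none had an unadjusted p under 0.05. Its largest difference, dorsal striatum over hypothalamus, was 0.17 with a 95% interval of -0.04 to 0.37, and it was -0.20, again not called, with scaling by library size alone. The regional means spanned 1.13-fold. Between regional means of log2 CPM the span of *Celsr3* was 0.18, wider than that of only 5.62% of the genes tested.

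*Wwc1* had its highest level in the motor cortex, where the 5 libraries were at 55.6, 57.0, 60.1, 65.9 and 68.5 CPM (mean 61.4 ± 5.60 SD). The dorsal striatum had 41.7 CPM at the lowest, 49.6 at the median and 62.2 at the highest (mean 50.5 ± 7.54 SD, n = 7). The ventral striatum (30.1, 37.6 and 42.3 CPM) and the hypothalamus (29.6, 33.7 and 40.9 CPM) lay lower and overlapped with each other. Of its 6 pairs, 5 were called. The motor cortex exceeded the dorsal striatum by 0.33 on the log2 scale (log2 fold change of dorsal striatum over motor cortex -0.33, SE 0.11, adjusted p = 0.0061), and the dorsal exceeded the ventral striatum by 0.43 (SE 0.10, adjusted p = 6.82e-05). Ventral striatum and hypothalamus differed by 0.08 with a 95% interval of -0.11 to 0.26, and this pair was not called.

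*Opa1*, the mitochondrial fusion gene, was lowest in the hypothalamus, with 119 CPM at the lowest, 138 at the median and 144 at the highest (mean 135 ± 8.60 SD, n = 8). It was highest in the dorsal striatum, at 167, 184 and 192 CPM (mean 182 ± 8.59 SD, n = 7). The motor cortex (157 to 181 CPM, n = 5) and the ventral striatum (154 to 178 CPM, n = 8) lay between them. With TMM, none of the hypothalamic libraries reached the lowest library of another region. The hypothalamus differed from dorsal striatum by a log2 fold change of 0.43 (dorsal striatum over hypothalamus, SE 0.06, adjusted p = 4.75e-12), and from ventral striatum by 0.29 in the same direction. Hypothalamus over motor cortex was -0.32, and the 3 pairs without it were not called. Scaling by library size alone ended the calls of *Opa1* with the hypothalamus, as given with *Nipbl* below. Its variation between libraries of a group was small, with a biological coefficient of variation of 6.98%, where the median gene had 10.6%.

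With TMM, *Nipbl* was higher on average in both striatal regions than in the motor cortex and hypothalamus. Libraries of the ventral striatum and hypothalamus overlapped. The dorsal striatum had 112 CPM at the lowest, 119 at the median and 136 at the highest (mean 124 ± 8.99 SD, n = 7) and the ventral striatum 102, 112 and 122 CPM (mean 112 ± 7.87 SD, n = 8). The 5 motor cortex libraries were at 89.3 to 99.5 CPM (mean 93.7 ± 4.64 SD) and the hypothalamus at 82.4, 90.1 and 112 CPM (mean 91.7 ± 9.06 SD, n = 8). The 4 pairs of a striatal with another region were called, with log2 fold changes of 0.44 and 0.41 for the dorsal striatum over hypothalamus and motor cortex and 0.30 and 0.26 for the ventral striatum. The striatal regions were not told apart from each other (0.14, adjusted p = 0.112), nor hypothalamus from motor cortex (-0.03, adjusted p = 0.770). Scaling by library size alone, which shifts the median gene by -0.36 between dorsal striatum and hypothalamus, took the calls of *Wwc1*, *Opa1*, *Nipbl* and *Immp2l* in that pair below the threshold, and those of *Opa1* and *Nipbl* between ventral striatum and hypothalamus. It also ended the *Opa1* call between hypothalamus and motor cortex and turned *Nipbl* there to a called 0.21, so these differences are relative to the bulk of genes.

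*Col27a1*, the collagen gene, was lowest in the motor cortex, whose 5 libraries were at 0.448, 0.483, 1.20, 1.35 and 2.06 CPM (2 to 8 counts). The dorsal striatum had 2.07 CPM at the lowest, 3.85 at the median and 5.50 at the highest, the ventral striatum 1.89, 2.96 and 4.88, and the hypothalamus 2.34, 3.07 and 4.07. Only the ventral striatum overlapped with the motor cortex in part, through 1 library. The 3 pairs with the motor cortex were called, at log2 fold changes of 1.62 (dorsal striatum, SE 0.37), 1.53 (ventral striatum, SE 0.37) and 1.52 (hypothalamus, SE 0.36), and the others lay between 0.01 and 0.10 and were not. *Immp2l*, the peptidase subunit, had regional means of 2.10 ± 1.30 CPM (motor cortex, n = 5), 2.27 ± 0.83 (dorsal striatum, n = 7), 2.09 ± 0.80 (ventral striatum, n = 8) and 1.33 ± 0.49 (hypothalamus, n = 8). Its libraries overlapped in every pair of regions. The dorsal striatum exceeded the hypothalamus by a log2 fold change of 0.76 (SE 0.30, adjusted p = 0.0192), a call that was lost with DESeq2 (adjusted p = 0.0588) and without heterozygous library 5 (0.0605) or WT library 2 (0.0588) of the dorsal striatum or KO library 7 of the hypothalamus (0.0611). These are edgeR values except where DESeq2 is named.

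The next comparison asked whether the candidate genes differ between genotypes within a region. None of the 8 genes was called between KO and WT by edgeR's likelihood ratio test in the dorsal striatum, where 0.387% of all genes were called, the ventral striatum (0.0801%), the hypothalamus (0.167%) or the motor cortex (0.0334%). The same count, 0 of 32 combinations of gene and region, came from edgeR's quasi-likelihood test and from DESeq2. At an unadjusted p under 0.05 there were 2 of 32, or 6.25%, where all genes gave 5.92%. These were *Cntn6* (0.78, SE 0.37) and *Immp2l* (-1.42, SE 0.60) in the motor cortex, against its 1 WT library. The lowest adjusted p was 0.733, that of *Celsr3* in the dorsal striatum. In that region a list of 10 oligodendrocyte genes summed to 1877 and 2114 CPM in WT, 2698 to 2840 CPM in heterozygous and 2861 and 3672 CPM in KO libraries, and its part in the values there was not tested.

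The width of the intervals differed between the genes. In the 3 regions with more than 1 WT library, the KO to WT ratio of *Opa1* had 95% intervals within 0.78 to 1.20, that of *Nipbl* within 0.74 to 1.18 and that of *Wwc1* within 0.71 to 1.37. *Celsr3* lay within 0.60 to 1.32. The intervals of *Slitrk1* reached from 0.84 to 1.83, those of *Cntn6* from 0.69 to 2.05, those of *Col27a1* from 0.35 to 1.81 and those of *Immp2l* from 0.29 to 1.96. With all libraries in the fit, a 2-fold change in either direction lay outside the intervals of *Opa1*, *Nipbl*, *Wwc1*, *Celsr3* and *Slitrk1*. The *Slitrk1* values depended on single libraries, as given below. The intervals of *Cntn6* included a 2-fold rise and those of *Col27a1* and *Immp2l* a 2-fold fall in at least 1 region.

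**Figure D4:**
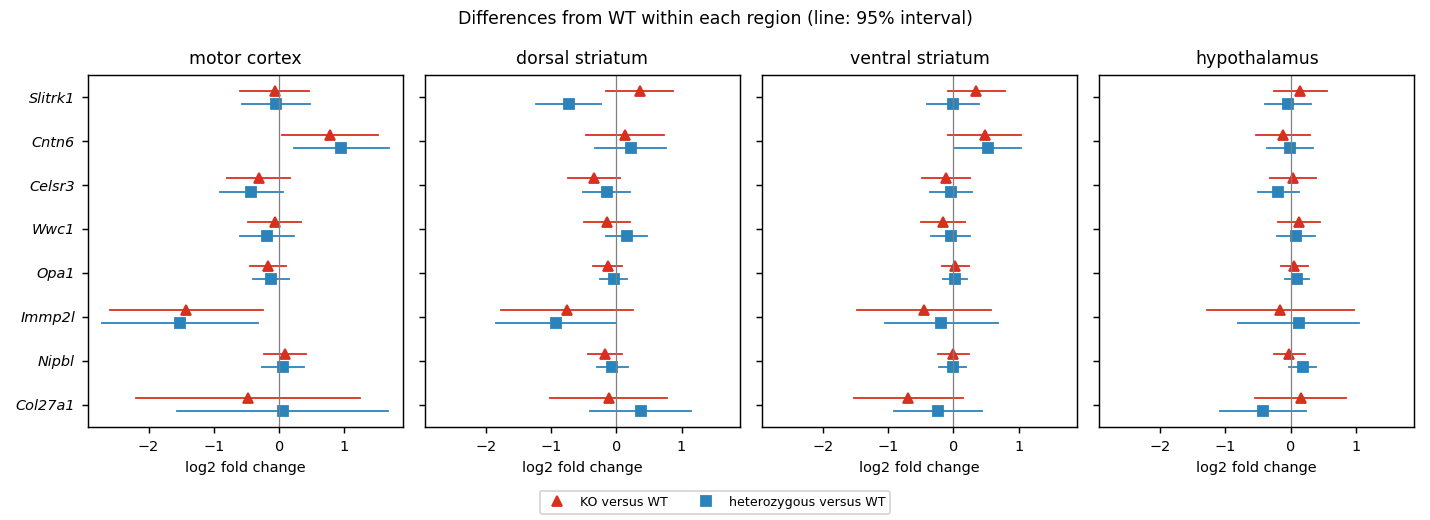
Log2 fold change of KO (triangles) and heterozygous (squares) libraries over WT in each region for the 8 candidate genes, with 95% intervals as lines on a shared axis. None passed the adjusted threshold, and the widest intervals are those of *Immp2l* and *Col27a1*, the genes with the fewest counts.

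*Slitrk1* shows how single libraries weigh in these comparisons. In the dorsal striatum it was at 18.59 and 19.04 CPM in WT libraries, at 10.6, 11.2 and 12.3 CPM in heterozygous libraries and at 14.4 and 33.4 CPM in KO libraries. The heterozygous libraries were all below the WT libraries, and the KO libraries lay on either side of them. How often genotype groups this small separate was not counted over all genes, here or for the genes below. Heterozygous minus WT was -0.73 on the log2 scale (SE 0.26, 95% interval -1.23 to -0.23), with an unadjusted p of 0.0039 and an adjusted p of 0.322 by edgeR's likelihood ratio test, so it was not called. Across alternatives and left-out libraries this value stayed between -0.79 and -0.55. KO minus WT was 0.36 (SE 0.26). It was -0.38 without KO library 7, the library highest in cortical markers, and 0.82 without KO library 8, so it had no stable sign. In the ventral striatum the KO libraries had 29.8 and 44.0 CPM and the WT libraries 22.5, 26.1 and 37.7 CPM (log2 fold change 0.35, SE 0.22). Without KO library 8 that value was 0.04. In the hypothalamus KO minus WT was 0.15 (SE 0.20), and -0.06 without its KO library 8.

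For *Cntn6*, the WT libraries of the ventral striatum had 5.13, 5.77 and 7.27 CPM, the heterozygous libraries 7.42, 9.10 and 9.69 CPM and the KO libraries 7.80 and 9.11 CPM. Every heterozygous and KO library was above every WT library there, a separation whose share over all genes was not counted. The log2 fold changes were 0.53 (SE 0.26, adjusted p = 1.00) and 0.48 (SE 0.29, adjusted p = 0.942), which edgeR's likelihood ratio test did not call. In the motor cortex the 1 WT library had 6.25 CPM, the heterozygous libraries 9.90 and 14.4 CPM and the KO libraries 7.84 and 14.1 CPM. In the dorsal striatum and hypothalamus the 3 genotypes of *Cntn6* differed by at most 0.22 on the log2 scale.

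*Celsr3* was at 48.6 and 57.4 CPM in WT and at 41.5 and 42.4 CPM in KO libraries of the dorsal striatum, while the heterozygous libraries at 37.6, 53.0 and 53.0 CPM overlapped with both. KO minus WT was -0.34 (SE 0.20, 95% interval -0.74 to 0.06). *Immp2l* was at 3.00 and 3.63 CPM in WT (10 and 16 counts), at 1.22, 1.63 and 2.45 CPM in heterozygous and at 1.84 and 2.10 CPM in KO libraries of the dorsal striatum. Both mutant groups were below WT, with log2 fold changes of -0.93 (SE 0.47, adjusted p = 0.613) and -0.76 (SE 0.52, adjusted p = 0.758) by the same test. Its motor cortex WT library had 4.33 CPM, the highest *Immp2l* value of all 28 libraries, and the heterozygous and KO libraries there had 1.03 to 1.93 CPM. *Opa1*, *Nipbl* and *Wwc1* had KO minus WT values between -0.18 and 0.13 in all 4 regions, *Col27a1* between -0.69 and 0.16.

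Heterozygous and WT libraries were compared in the same model and share the WT libraries with the KO comparison. Again none of the candidate genes was called, where 0.0618% of all combinations of gene and region were, namely 0.0868% of all genes in the dorsal striatum, 0.0534% in the ventral striatum, 0.0935% in the hypothalamus and 0.0134% in the motor cortex. At an unadjusted p under 0.05 there were 5 of 32, or 15.6%, where all genes gave 5.45%, and edgeR's quasi-likelihood test and DESeq2 called 0 as well. The 5 were *Slitrk1* and *Immp2l* in the dorsal striatum, *Cntn6* in the ventral striatum, and *Cntn6* and *Immp2l* in the motor cortex, where they rest on 1 WT library. Whether the KO effect differs between regions was tested for the 3 regions with more than 1 WT library. None of 24 combinations was called or had an unadjusted p under 0.05 in edgeR's likelihood ratio test, and the shares of all genes called were 0.00668% for dorsal against ventral striatum, 0.154% for dorsal striatum against hypothalamus and 0.1% for ventral striatum against hypothalamus.

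Genes of the same families and pathways, in 8 lists of 76 genes chosen for their link to a candidate gene, were read in the same fits. Over all lists 228 of 456 combinations of gene and region pair were called (50%, against 44% over all genes). Between KO and WT 3 of 304 were called (0.987%, against 0.167% over all genes) and between heterozygous and WT 0 of 304 (0.0618% over all genes). The 3 calls, of *Cntn2*, *Col1a1* and *Col3a1*, depended on single libraries, as given below. The other Slitrk genes and the receptor phosphatases that bind them (8 genes) were called in 37 of 48 combinations of gene and region pair (77.1%, beside the 44% of all genes), and 0 of 32 between KO and WT. *Slitrk6* had another order of regions than *Slitrk1*, with 27.3 ± 6.86 CPM in the hypothalamus (SD, n = 8), 7.14 ± 2.19 in the ventral striatum (n = 8), 5.55 ± 1.56 in the dorsal striatum (n = 7) and 0.55 ± 0.36 in the motor cortex (n = 5). Hypothalamus exceeded motor cortex by a log2 fold change of 5.53 (SE 0.50). The motor cortex mean was under 1 CPM, so the size of this change is uncertain. *Slitrk5*, the family member with the highest level per kb (19.6 CPM per kb), was at 127 ± 11.8 CPM in the dorsal striatum, the region where *Slitrk1* was lowest, and at 122 ± 9.72 CPM in the motor cortex. *Slitrk2* and *Slitrk3*, named after their values were seen, had log2 fold changes of -0.07 and -0.06 for dorsal striatum over motor cortex, which were not called, where *Slitrk1* differed by -2.67. Of the phosphatases, *Ptprd* was lower in the dorsal striatum than in the motor cortex by 0.85 (log2 fold change -0.85, SE 0.08).

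**Figure D5:**
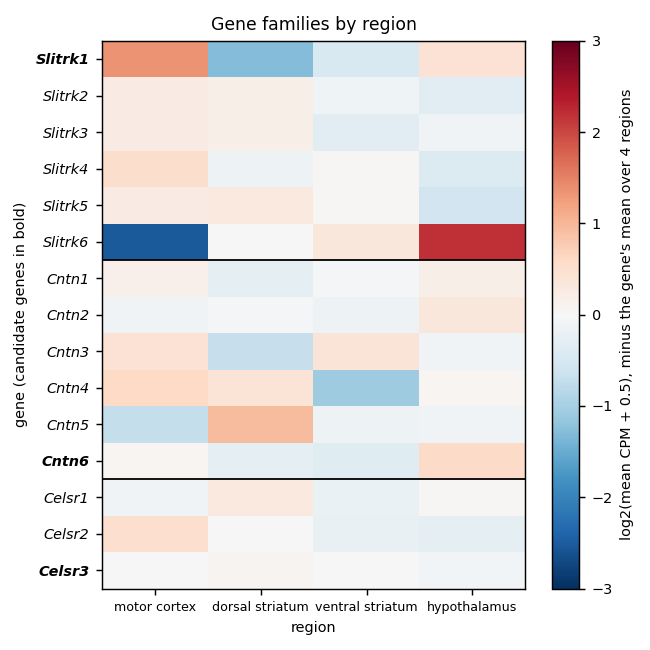
Regional profile of the Slitrk, contactin and Celsr genes, as log2(mean CPM + 0.5) minus the mean of the gene over the 4 regions, red above and blue below. *Slitrk1* runs from 1.34 in the motor cortex to -1.30 in the dorsal striatum, *Slitrk6* from -2.53 in the motor cortex to its highest value in the hypothalamus, and *Celsr3* stays between -0.09 and 0.09.

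The contactins and their partners (7 genes) were called in 31 of 42 region combinations (73.8%, beside the 44% of all genes). *Chl1*, a neural adhesion molecule of the L1 family, was lower in the dorsal striatum than in the hypothalamus (log2 fold change -1.44, SE 0.11), in the same direction as *Cntn6*, whereas *Cntn5* was higher in the dorsal striatum (1.07, SE 0.11). *Cntn4* separated the striatal regions, at 48.9 ± 8.88 CPM in the dorsal (n = 7) and 17.4 ± 4.65 CPM in the ventral striatum (n = 8). *Cntn2*, a contactin of axons and myelinating glia, was the 1 gene of this list that differed between KO and WT. It was at 64.2 and 67.5 CPM in WT and at 109 and 120 CPM in KO libraries of the dorsal striatum (log2 fold change 0.80, SE 0.17, adjusted p = 0.0037, edgeR likelihood ratio test), and its KO effect differed between dorsal striatum and hypothalamus (0.95, SE 0.23, adjusted p = 0.0271). The heterozygous libraries there had 85.3, 85.8 and 107 CPM. The oligodendrocyte list was likewise higher in the heterozygous and KO than in the WT libraries, as given above, and its part in the *Cntn2* difference was not tested. The *Cntn2* call in the dorsal striatum was lost without KO library 8 (adjusted p = 0.115) or WT library 1 (0.0821) or 2 (0.126), and held with edgeR's quasi-likelihood test (0.0427) and DESeq2 (0.00835). The call of the difference between regions was lost with both tools (0.217 and 0.101) and in 8 of 9 fits with a library left out (0.0504 to 0.248), all but the one without KO library 7 of the dorsal striatum (0.0216).

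The planar cell polarity genes around *Celsr3* (12 genes) were called in 45 of 72 region combinations (62.5%, beside the 44% of all genes), where *Celsr3* was called in 0 of 6. *Celsr2*, named after its values were seen, had 406 ± 5.15 CPM in the motor cortex and 232 ± 20.4 CPM in the hypothalamus, and *Vangl1*, a membrane protein of the pathway, was higher in the hypothalamus than in the motor cortex by a log2 fold change of 2.24 (SE 0.23). Hippo pathway genes (12) were called in 29 of 72 (40.3%, near the 44% of all genes). *Frmd6*, which acts upstream of the kinases as *Wwc1* does, was lower in hypothalamus than in motor cortex (-1.50, SE 0.16), as *Wwc1* was (-0.83, SE 0.10). Genes of mitochondrial fusion, fission and cristae (11) were called in 22 of 66 (33.3%, below the 44% of all genes). Between dorsal striatum and hypothalamus, 5 of them were lower (30.7% of all genes) and 0 higher (25.5%) in the dorsal striatum, where *Opa1* was higher by 0.43. *Mfn1*, which fuses the outer mitochondrial membrane, was among the 5 (log2 fold change -0.63, SE 0.11). With scaling by library size alone 11 were lower and *Opa1* was not called.

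Genes of cohesin and its regulators (12) were called in 29 of 72 (40.3%, near the 44% of all genes). In the dorsal striatum against the hypothalamus, where *Nipbl* was higher, 6 were higher (25.5% of all genes) and 1 lower (30.7%). With scaling by library size alone 0 were higher and 6 lower, so this direction depends on the scaling. Against the motor cortex, 5 were higher (21.4% of all genes) and 1 lower (22%), or 3 and 1 with library size alone. *Mau2*, whose protein forms the cohesin loader with NIPBL, exceeded its hypothalamic level by 0.46 in the dorsal striatum (log2 fold change, SE 0.07) with TMM. *Stag1*, a cohesin subunit, was higher there than in the motor cortex by 0.65 (SE 0.12).

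Fibrillar collagens (10) were called in 26 of 60 region combinations (43.3%, near the 44% of all genes). *Col5a1* differed from *Col27a1* in direction, with a log2 fold change of -3.02 (SE 0.50) for dorsal striatum over motor cortex. *Col1a1* and *Col3a1* were called between KO and WT in the ventral striatum (2.43, SE 0.52, adjusted p = 0.00552, and 3.81, SE 0.82, adjusted p = 0.00475, by the same edgeR test). Both rest on KO library 8, at 51.9 and 27.8 CPM, where the other KO library had 4.02 and 0.709 CPM and the WT libraries 4.90 to 5.39 and 0.808 to 1.28 CPM. Without that library the log2 fold changes were -0.35 and -0.47. That library had 123 CPM for 6 meningeal fibroblast genes, which include both collagens, against 13.8 to 28.3 CPM in the other 7, while its *Col27a1* level was 3.04 CPM, inside the range of the WT and heterozygous libraries. The genes of the inner membrane peptidase list (*Immp1l* and 3 others) were called in 9 of 24 region combinations (37.5%, beside the 44% of all genes). Between KO and WT 0 of 16 were called (0.167% over all genes). *Gpd2*, the mitochondrial glycerol phosphate dehydrogenase, was lower in the dorsal striatum than in the motor cortex (-0.86, SE 0.08).

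Genes whose log2 CPM followed a candidate gene most closely over the 28 libraries were also listed, as a description. The 28 points share regions, so r includes the differences between them. *Car10* (r = 0.985, rho = 0.977), *Ncald* (r = 0.972) and *Basp1* (r = 0.970) were most like *Slitrk1*, and *Car10* had regional means of 289 CPM in the motor cortex, 133 in the hypothalamus, 37.6 in the ventral and 16.5 in the dorsal striatum. *Sept5* (r = 0.918) and *D17Wsu92e* (0.913) were among the genes most like *Wwc1*. *Cnot7* (0.947), *Gatad2b* (0.945) and *Rps6ka3* (0.943) followed *Opa1*, and *5330417C22Rik* (0.920), *Ybx1* (0.900) and *Unc79* (0.899) followed *Nipbl*. *Tnfrsf8* (0.850), *Tuba1a* (0.848) and *Grid2ip* (0.844) were closest to *Cntn6*, and *Tnfrsf8* was low, with regional means of 0.109 to 3.06 CPM. For *Col27a1* the highest r values were those of *Mdk* (0.820), *Tacr3* (0.818) and *Bmpr1a* (0.815). Their rho was lower than r, at 0.506, 0.352 and 0.576 in the same order. *Celsr3* and *Immp2l* reached at most 0.700 (*Cwc22*) and 0.702 (*Gmeb2*).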

How the data were processed

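RNA-seq libraries of 28 dissected samples (4 brain regions, 3 *Hdc* genotypes) were analysed from counts per gene that the authors deposited, made without strand information in the library kit. Per the submitters' processing notes the tools included Trimmomatic 0.32, Bowtie2 2.2.3, STAR 2.3.1z8, SAMtools 0.1.19 and HTSeq 0.6.1p1, with reads on GRCm38. Rows that name no gene were left out, which kept 44.78% to 54.22% of the tallied reads. Gene symbols and positions came from GENCODE M21, which named 28758 of 29878 genes. Groups came from the labels.

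As in the study's methods, genes under 1 CPM were filtered out and edgeR's glmFit and glmLRT were used. The details of the model were chosen here. Genes with more than 1 CPM in at least 2 libraries were kept, libraries were scaled by TMM, and a single model holding 12 group means was fitted in edgeR 4.0.16 (R 4.3.3, limma 3.58.1) with likelihood ratio tests. The p-values were adjusted by the Benjamini-Hochberg method over all 14979 genes, two-sided, at 0.05. Region pairs compared the unweighted mean of the 3 genotypes. Intervals are 95% intervals of the fitted log2 fold change. The alternatives were edgeR's quasi-likelihood test, DESeq2 1.42.0, scaling by library size alone, no filter on low counts, only the compared regions in the fit, a replicate block and each library left out. Added after the data were seen was a fit without the library highest in cortical markers of each region but the motor cortex. Scripts were tested on simulated data. Within groups, 21 pairs of libraries differed by a chi-square per degree of freedom of 1.86 to 14.6, so none was counted as 1 library deposited again.

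The candidate genes, gene lists and marker lists were chosen with earlier results of these data known. Besides the 8 genes, the text names by rule up to 2 called genes with the largest change per list and comparison, the 3 genes most like each candidate gene by Pearson's r (1 of these is not reported here), the markers of the regions, and annotated genes overlapping a candidate gene. Promoter windows are RefSeq's on GRCm38.p6, and motifs were searched on both strands.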

Additional observations from a re-analysis of the deposited data

How the results depend on the processing

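The count of candidate genes called between regions was 25 of 48 by edgeR's likelihood ratio test, by its quasi-likelihood test, by DESeq2, without the filter on low counts and with only the compared regions in the fit. It was 19 with scaling by library size alone, 26 without the 3 libraries highest in cortical markers of their region, and 24 to 27 with single libraries left out. It was 0 between genotypes, and for the difference of the KO effect between regions, under each of these that was run. Leaving out the 3 libraries highest in cortical markers of their region was run for KO against WT outside the motor cortex and not for heterozygous against WT. Over the 984 alternative values of single genes between regions, 11 lost and 11 gained a call. With library size alone, *Nipbl* in hypothalamus over motor cortex turned from -0.03 to a called 0.21 (adjusted p = 0.0428). That scaling shifts the median gene by construction, by -0.36 for dorsal striatum over hypothalamus, -0.21 for ventral striatum over hypothalamus, 0.23 for hypothalamus over motor cortex and -0.15 and -0.13 for dorsal over ventral striatum and motor cortex, and by 0.28 and 0.19 for KO and heterozygous over WT in the dorsal striatum. Of values that were not called, 45 of 461 between regions and 38 of 312 between KO and WT changed sign under an alternative. Leaving out the 1 WT motor cortex library gave no value.

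Counts over all genes between genotypes were less steady. KO against WT gave 58 genes in the dorsal striatum (11 to 151 with a library left out, 12 with the quasi-likelihood test, 499 with library size alone), 12 in the ventral striatum (4 to 159, lowest 4 with the quasi-likelihood test) and 25 in the hypothalamus (4 to 127, lowest 4). In the motor cortex it gave 5, and 60 with only that region in the fit. Heterozygous against WT gave 13 (3 to 73), 8 (2 to 8), 14 (2 to 14) and 2 (1 to 7) in the same order. The KO effect differed between dorsal striatum and hypothalamus for 23 genes (1 to 139), between ventral striatum and hypothalamus for 15 (1 to 103) and between dorsal and ventral striatum for 1 (0 to 96). The cause of these shifts was not tested.

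Library names carry digits, unexplained in the labels, that recur across regions within a genotype and never across genotypes. Each is followed by a letter that goes with the region. Deviations from the group means had a mean correlation of 0.00697 over 34 pairs with the same digit (-0.0798 to 0.0856) and of -0.00424 over 56 pairs with different digits. Deviations from means of so few libraries cannot show whether a digit marks 1 mouse. The main fit assumed no pairing by digit. With the digit as a replicate block the count between regions was 25 and that of differing KO effects 0, while the *Cntn2* difference between dorsal striatum and hypothalamus lost its call (0.91, adjusted p = 0.0692, edgeR). Depth limits *Col27a1* and *Immp2l* most, at 2 to 27 and 4 to 18 counts per library.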
